A study of Homo sapiens with 18 samples.

Results

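The data described here are the RNA profiles of untreated HCT116 cells that carried the N108 mutant of IκBα, set against untreated HCT116 cells that carried wild-type (WT) IκBα. HCT116 is a human colorectal cancer cell line. The labels title both groups as IκBα knock-ins, WT included. The libraries were chosen by their labels alone, 3 of N108 and 3 of WT, which is 6 of the 18 libraries of the study. Of the 61552 genes in the count table, 19038 passed a filter on low counts and were tested. The labels give N108 by name and do not say which change it carries. Where other groups are named, they are N108 cells with TNF, M3 cells without TNF (knock-ins in which residues 84, 85 and 86 of IκBα were changed to alanine) and WT cells with TNF, all of the same cell line. TNF was human TNFα at 0.1 µg/mL for 40 min. All cells were grown in DMEM with fetal bovine serum. The labels do not say how many clones stand behind a genotype, so the mutation and the line that carries it cannot be told apart here. Nor do they say that replicates came from separate cultures, so each p-value rests on a spread among libraries that may be no more than technical.

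IκBα, the product of NFKBIA, is an inhibitor of NF-κB. It binds dimers of RELA and NFKB1 in the cytoplasm, and on TNF it is phosphorylated by the IKK complex and degraded, which lets the dimers enter the nucleus. NFKBIA is itself an NF-κB target, so new IκBα ends the response. The title of the study names mutants that separate functions of IκBα, and a role of it in intestinal stemness apart from NF-κB. Untreated cells show the levels that each genotype holds without a stimulus.

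The 3 N108 libraries held 58761357, 76296511 and 61233711 counts, against 76947190, 64991902 and 49407844 counts in the 3 WT libraries. Levels are given in CPM, counts per 1000000 counts of the TMM-scaled library total. The levels of cell markers in the next paragraph use the library total without that scaling. A difference is a log2 fold change of N108 over WT, given with its standard error, and a gene was called at an adjusted p under 0.05 by edgeR's quasi-likelihood test with Benjamini-Hochberg adjustment over all 19038 genes. By that test 8079 genes differed (42.4%), 3972 of them higher in N108 cells (20.9%) and 4107 lower (21.6%). Most of these differences were small, with a median absolute log2 fold change of 0.36. At least 2-fold were 453 higher genes (2.38%) and 600 lower genes (3.15%). Of these, 210 higher and 293 lower genes reached 1 CPM in the group with more, and in every one of them the 3 N108 libraries lay apart from the 3 WT libraries. The same held for 7904 of all 8079 called genes, so it adds little to the call. Since the shares of all genes called are this large, the count of any gene group below is to be read beside 20.9% higher and 21.6% lower. The median log2 fold change over all genes was 0.01.

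The cells expressed epithelial markers, but only part of the markers listed for colorectal epithelium. EPCAM, an epithelial surface protein, averaged 308 CPM in N108 cells and 289 CPM in WT cells, and CDX2, an intestinal transcription factor, 28.8 CPM in N108 cells and 22.6 CPM in WT cells. CDH1, by contrast, averaged 180 CPM in N108 cells and 204 CPM in WT cells. Of 15 such markers listed, 9 were tested, and 1 passed higher and 6 lower in N108 cells. The rest failed the low-count filter. The summed level of 15 epithelial markers was 5177 to 5439 CPM in N108 cells and 6702 to 7095 CPM in WT cells, most of it from keratins, and TFF3 had no count in either. The summed level of 20 immune and blood markers was 3.005 to 3.34 CPM in N108 cells and 4.31 to 5.26 CPM in WT cells. CD8A gave most of it in N108 cells and LYZ in WT cells, 6 of the 20 were at 0 in each group, and CD3D, CD3G, MS4A1, FCGR3A and NKG7 were at 0 in both. That of 16 fibroblast and endothelial markers was 31.1 to 34.3 CPM in N108 cells and 29.4 to 30.2 CPM in WT cells, most of it from COL1A1, while DCN, LUM, THY1 and CLDN5 were at 0 in both. The part of such markers in the results was not tested. In a bulk library, fewer cells that express a gene and less RNA of it per cell cannot be told apart.

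NFKBIA, the gene of IκBα, was lower in N108 cells. Its level was 30.1, 28.5 and 32.1 CPM in N108 cells, against 90.8, 87.4 and 96.5 CPM in WT cells. Every N108 library lay below every WT library, a 3.03-fold difference (log2 fold change -1.60 ± 0.05, adjusted p = 2.1e-19). N108 was also lower than M3 cells, edited in the same gene, which had 79.0, 78.1 and 76.7 CPM (log2 fold change -1.37 ± 0.05, adjusted p = 1.9e-17). With TNF, NFKBIA reached 276 ± 19.5 CPM in N108 cells and 758 ± 19.8 CPM in WT cells (SD, n = 3 each; log2 fold change -1.46 ± 0.05, adjusted p = 5.1e-19). The gene lies at chr14:35401511-35404749 on the minus strand (GENCODE 29, GRCh38). The nearest tested genes with at least 5 CPM in either group were taken in equal number on each side, 12 in all. They had log2 fold changes between -0.35 (FAM177A1) and 0.43 (MIPOL1), so none of them shared the size of the difference. PSMA6, the nearest of them at lower coordinates, was at 25.8 CPM in N108 cells and 26.2 CPM in WT cells.

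The promoter of NFKBIA is shown because the gene encodes IκBα and is an NF-κB target. It is given as the 250 bases before the start of transcription in the RefSeq table, build GRCh38.p14, chr14:35404750-35404999, minus strand, read 5′ to 3′. Capitals mark matches to the κB motif GGANTTTCC on either strand.
NFKBIA: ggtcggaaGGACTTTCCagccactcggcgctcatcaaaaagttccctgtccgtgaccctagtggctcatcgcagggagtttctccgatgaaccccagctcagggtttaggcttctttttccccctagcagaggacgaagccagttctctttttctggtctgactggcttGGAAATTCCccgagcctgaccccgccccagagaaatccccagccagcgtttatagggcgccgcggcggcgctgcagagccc
That motif stood in the 250-base promoters of 11 of 28 early NF-κB targets with an entry (39.3%), namely CXCL1, CXCL2, CXCL3, CXCL8, ICAM1, IL32, LTB, NFKB1, NFKBIA, NFKBIZ and TNFAIP3, and in 1.39% of the 12295 promoters of tested genes. Of these genes, NFKBIA, TNFAIP3, NFKBIZ, CXCL1, CXCL8 and NFKB1 fell in N108 cells, ICAM1 rose, and CXCL2, CXCL3, IL32 and LTB did not pass the test. A match describes letters in the sequence and shows no binding.

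Without TNF, NF-κB target genes as a group were slightly lower in N108 cells. Among 32 tested early NF-κB targets, 5 passed the test higher and 12 lower, with a median log2 fold change of -0.14, which was -0.07 once each library's trend with GC content was removed and -0.09 without N108 replicate 2. TNFAIP3 (A20), a deubiquitinase that limits NF-κB signalling, had 10.04, 9.21 and 9.29 CPM in N108 cells, against 24.6, 24.9 and 24.9 CPM in WT cells (-1.38 ± 0.06, adjusted p = 5.3e-16). IRF1, a transcription factor of the interferon and NF-κB responses, had 21.4, 19.3 and 21.8 CPM in N108 cells, against 32.8, 33.6 and 33.8 CPM in WT cells (-0.68 ± 0.06, adjusted p = 1.8e-09). CYLD, another deubiquitinase of the pathway, went the other way, with 17.8, 20.5 and 18.8 CPM in N108 cells, against 12.3, 11.5 and 11.8 CPM in WT cells (0.68 ± 0.07, adjusted p = 4.6e-09). For each of the 3 the N108 and WT libraries did not overlap. The drop was not particular to N108, since M3 cells differed from the same WT libraries by a median of -0.25 over the 32 targets. Between N108 and M3 the median was 0.15, with 11 targets higher and 3 lower in N108, against 16.4% and 15% of all genes. Chemokine levels were low throughout. CXCL8, a neutrophil attractant chosen after its values were seen, averaged 1.02 ± 0.0412 CPM in N108 cells and 1.92 ± 0.0971 CPM in WT cells (log2 fold change -0.90, adjusted p = 5.1e-06). CCL20, TNF, CSF2, LTB and IL32 stayed under 0.1 CPM in WT cells and did not pass the test.

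Among 33 genes for NF-κB subunits, IκB proteins and their upstream kinases and adaptors, 3 passed the test higher and 16 lower (median log2 fold change -0.18). With N108 replicate 1 left out, the number that passed higher was 1. M3 cells differed from the same WT libraries by a median of -0.23 over these genes. Between N108 and M3 the median was 0.11, with 11 members higher and 2 lower in N108. The subunit genes differed little. RELA had 96.8, 92.2 and 94.6 CPM in N108 cells, against 109, 110.0 and 111 CPM in WT cells (-0.22 ± 0.05, adjusted p = 3.9e-04), and NFKB1 had 57.6, 55.7 and 56.0 CPM in N108 cells, against 69.0, 70.6 and 70.1 CPM in WT cells (-0.31 ± 0.04, adjusted p = 1.2e-06). REL, at 10.3, 9.59 and 10.1 CPM in N108 cells, against 8.96, 8.75 and 7.90 CPM in WT cells, was slightly higher (0.22 ± 0.08, adjusted p = 0.033), and this call was lost in 6 of 14 other settings. NFKB2 (103, 98.0 and 103 CPM in N108 cells, 97.2, 97.6 and 102 CPM in WT cells) and RELB (13.5, 12.4 and 14.4 CPM in N108 cells, 11.9, 12.3 and 12.8 CPM in WT cells) overlapped between the groups and did not pass. IKBKB, the catalytic IKK subunit of the canonical pathway, was lower, with 32.1, 31.9 and 32.6 CPM in N108 cells, against 48.4, 45.7 and 47.0 CPM in WT cells (-0.55 ± 0.05, adjusted p = 5.2e-10). NFKBIZ, a nuclear IκB protein, had 3.44, 4.22 and 4.12 CPM in N108 cells, against 6.81, 6.34 and 6.58 CPM in WT cells (-0.74 ± 0.08, adjusted p = 3.2e-08), and RBCK1, a subunit of the LUBAC ubiquitin ligase, had 79.4, 72.3 and 74.8 CPM in N108 cells, against 100.1, 96.5 and 101 CPM in WT cells (-0.40 ± 0.05, adjusted p = 6.5e-07). The 3 genes that passed higher were TAB2, REL and TNFRSF1A, none by more than 0.24 on the log2 scale.

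**Figure D1:**
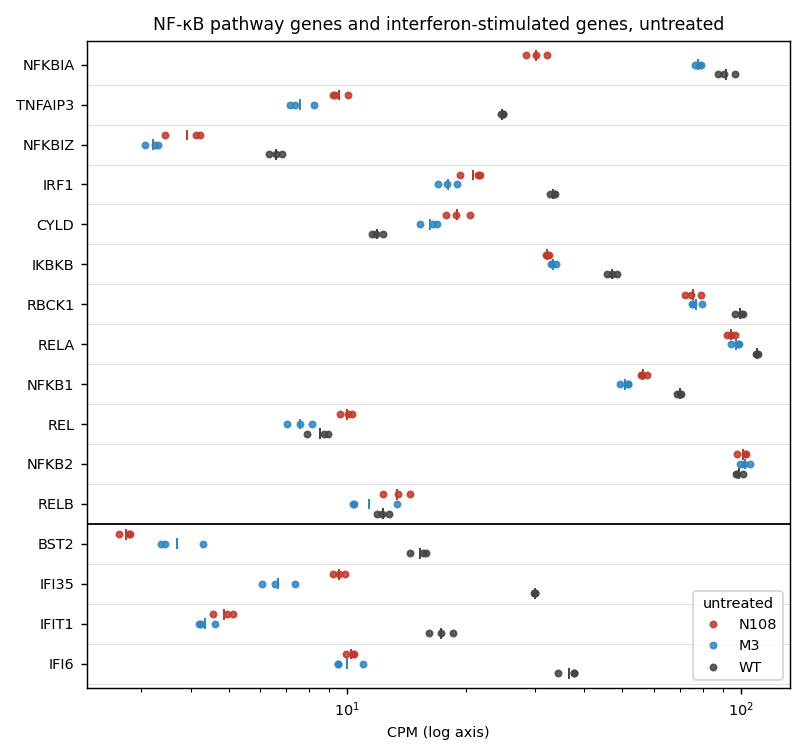
Levels of NF-κB pathway genes and of 4 interferon-stimulated genes (below the line) in untreated N108, M3 and WT cells, in CPM on a log axis. Each point is a library and each tick a mean of 3. NFKBIA stands at 30.3 CPM in N108 cells, 77.9 CPM in M3 cells and 91.6 CPM in WT cells, while the interferon-stimulated genes of N108 and M3 cells lie near each other and below WT.

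Interferon-stimulated genes were lower in N108 cells almost throughout. These genes carry out the antiviral response and are switched on through a complex that holds STAT2 and IRF9, but many are also expressed at a low level without interferon. Of 40 tested members, 34 passed lower (85%, against 21.6% of all genes) and 1 higher, and 20 were at least 2-fold lower. The median log2 fold change was -0.90. The stricter low-count filter brought it to -0.77. BST2 (tetherin), which holds budding virus at the cell surface, had 2.79, 2.63 and 2.81 CPM in N108 cells, against 14.4, 15.8 and 15.6 CPM in WT cells (-2.48 ± 0.09, adjusted p = 1.3e-18). IFI35 had 9.88, 9.54 and 9.18 CPM in N108 cells, against 30.1, 29.8 and 29.9 CPM in WT cells (-1.65 ± 0.07, adjusted p = 4.1e-17). IFIT1, which binds viral RNA, had 4.55, 5.13 and 4.94 CPM in N108 cells, against 17.3, 18.6 and 16.1 CPM in WT cells (-1.83 ± 0.08, adjusted p = 1.2e-16), and IFI6 had 9.93, 10.3 and 10.4 CPM in N108 cells, against 37.6, 34.4 and 37.8 CPM in WT cells (-1.84 ± 0.08, adjusted p = 3.4e-16). In all 4 genes the N108 libraries stood well below the WT libraries, and the groups did not overlap.

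Further members, picked here after their values were seen, gave the range. OAS1, a sensor of double-stranded RNA, averaged 1.66 ± 0.417 CPM in N108 cells and 14.6 ± 0.194 CPM in WT cells (log2 fold change -3.12). ISG15, a ubiquitin-like modifier, averaged 32.3 ± 2.68 CPM in N108 cells and 76.8 ± 4.15 CPM in WT cells (-1.25), and IFITM3, a membrane protein that blocks viral entry, averaged 209 ± 5.34 CPM in N108 cells and 364 ± 15.1 CPM in WT cells (-0.80). Of the signal proteins, STAT2 averaged 52.0 ± 1.25 CPM in N108 cells and 64.1 ± 2.25 CPM in WT cells (-0.30), and IRF9 1.32 ± 0.156 CPM in N108 cells and 3.02 ± 0.0747 CPM in WT cells (-1.19). IRF7 averaged 5.29 ± 0.260 CPM in N108 cells and 15.7 ± 0.302 CPM in WT cells (-1.57). PARP14, DDX60, UBE2L6, HERC5 and IFIT5 did not pass the test, and OASL was the one member called higher (0.21, adjusted p = 0.037). No member was called higher by DESeq2, without a low-count filter, or without N108 replicate 2 or 3 or WT replicate 1 or 3. With TNF, 34 of 40 members passed lower in N108 against WT (median -0.76), against 23.6% of all genes. In M3 cells the median difference from the same WT libraries was -0.97, and between N108 and M3 it was 0.03, with 9 members higher and 8 lower in N108. Of all genes, 16.4% were higher and 15% lower in N108 than in M3.

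Interferon-stimulated genes are bound by their activators at the interferon-stimulated response element. The 3 members with the smallest p that hold the motif GAAANNGAA on either strand are shown, each as the 250 bases before its RefSeq start in build GRCh38.p14, 5′ to 3′ on the gene's strand, with the motif in capitals: BST2 at chr19:17405631-17405880 (minus strand), IFIT1 at chr10:89392373-89392622 (plus strand) and IFI6 at chr1:27672193-27672442 (minus strand).
BST2: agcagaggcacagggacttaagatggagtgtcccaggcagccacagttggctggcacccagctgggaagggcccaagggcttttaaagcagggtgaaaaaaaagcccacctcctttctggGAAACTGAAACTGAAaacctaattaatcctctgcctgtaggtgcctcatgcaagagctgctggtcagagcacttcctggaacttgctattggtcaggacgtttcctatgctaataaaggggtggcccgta
IFIT1: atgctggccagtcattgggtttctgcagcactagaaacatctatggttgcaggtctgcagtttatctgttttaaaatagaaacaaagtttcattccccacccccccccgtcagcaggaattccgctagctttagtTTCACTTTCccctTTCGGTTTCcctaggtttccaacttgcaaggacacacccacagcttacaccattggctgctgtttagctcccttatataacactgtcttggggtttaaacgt
IFI6: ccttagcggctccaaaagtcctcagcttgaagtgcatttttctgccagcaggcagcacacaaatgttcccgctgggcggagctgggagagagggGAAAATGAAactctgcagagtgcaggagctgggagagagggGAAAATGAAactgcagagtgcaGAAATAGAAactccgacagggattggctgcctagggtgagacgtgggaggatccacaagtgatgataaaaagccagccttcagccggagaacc
The motif stood in the promoters of 20 of 33 members with an entry (60.6%) and in 5.41% of all 12295 promoters of tested genes. A match overlapped one of the κB or hypoxia motifs in 5 promoters. Members that hold it, such as BST2, IFIT1 and IFI6, and members that hold none in this window, such as OAS1 and IFI35, both fell. PARP14, DDX60, HERC5 and IFIT5 hold it too and did not pass the test.

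Antigen presentation genes were lower as well. Of 20 tested, 14 passed lower (median log2 fold change -0.26) and 0 higher (edgeR; 1 at an unadjusted p under 0.05, 0 with DESeq2). PSMB10, a subunit of the immunoproteasome, had 3.09, 2.79 and 3.42 CPM in N108 cells, against 7.39, 7.35 and 8.08 CPM in WT cells (-1.30 ± 0.11, adjusted p = 1.8e-10), and PSMB9, another, had 5.39, 5.54 and 5.99 CPM in N108 cells, against 8.21, 8.09 and 8.22 CPM in WT cells (-0.54 ± 0.07, adjusted p = 8.8e-07). NLRC5, the activator of MHC class I genes, had 10.4, 9.32 and 10.1 CPM in N108 cells, against 16.1, 16.3 and 17.3 CPM in WT cells (-0.73 ± 0.07, adjusted p = 1.1e-09). TAPBP (tapasin), which loads peptides on MHC class I, had 139, 132 and 131 CPM in N108 cells, against 185, 182 and 187 CPM in WT cells (-0.46 ± 0.04, adjusted p = 8.7e-10). For each of these 4 genes all N108 libraries lay below all WT libraries. The class I heavy chains differed less, with HLA-B at -0.17 and HLA-C at -0.21.

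The 12 lowest genes with at least 1 CPM in WT cells are described here by what is known of them. PLEKHS1, a pleckstrin homology domain protein, had 0.252, 0.248 and 0.196 CPM in N108 cells, against 45.8, 47.1 and 46.2 CPM in WT cells (-7.63 ± 0.10, adjusted p = 2.3e-28). BPIFB1, a secreted protein of mucosal surfaces, had 0.168, 0.0782 and 0.114 CPM in N108 cells, against 14.7, 14.02 and 14.6 CPM in WT cells (-6.93 ± 0.14, adjusted p = 4.8e-24). SLC6A20, a transporter of proline, had 0.587, 0.508 and 0.360 CPM in N108 cells, against 29.6, 30.6 and 30.0 CPM in WT cells (-5.94 ± 0.10, adjusted p = 1.1e-26). Each of these 3 was under 1 CPM in N108 cells and in M3 cells. STC1, a secreted glycoprotein hormone, had 5.03, 3.54 and 5.05 CPM in N108 cells, against 168, 165 and 162 CPM in WT cells (-5.20 ± 0.11, adjusted p = 3.3e-18). DCLK1, a kinase that marks tuft cells of the gut, had 0.0336, 0.117 and 0.0491 CPM in N108 cells, against 5.32, 5.02 and 4.88 CPM in WT cells (-6.12 ± 0.21, adjusted p = 4.9e-19). SEMG1, known as a protein of seminal fluid, had 0.185, 0.169 and 0.0818 CPM in N108 cells, against 10.2, 9.82 and 9.84 CPM in WT cells (-6.06 ± 0.17, adjusted p = 4.1e-20), and KRTAP3-1, a hair keratin-associated protein, had 0.151, 0.208 and 0.164 CPM in N108 cells, against 15.3, 17.5 and 13.9 CPM in WT cells (-6.44 ± 0.17, adjusted p = 7.5e-22). PSG4, a pregnancy-specific glycoprotein with near-identical relatives, had 0.0168, 0.0130 and 0.0327 CPM in N108 cells, against 2.82, 2.53 and 2.16 CPM in WT cells (-6.82 ± 0.38, adjusted p = 2.9e-14). COX7CP2, a processed pseudogene within KDM5B whose reads may come from related copies, had 0.0839, 0.0912 and 0.180 CPM in N108 cells, against 8.02, 7.35 and 7.32 CPM in WT cells.

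Several of the lowest genes were so near 0 in N108 cells that their fold is best given from counts. ANKRD1 had 2 counts over the 3 N108 libraries and 401 over the 3 WT libraries, a WT to N108 ratio of 205 (95% exact interval 56.5 to 1702, counting error only). ANKRD1 is a muscle ankyrin repeat protein and a standard target of YAP and TAZ. ITGBL1 had 2 counts over the 3 N108 libraries and 236 over the 3 WT libraries, a WT to N108 ratio of 121 (95% exact interval 33.1 to 1004, counting error only). LINC00705 had 3 counts over the 3 N108 libraries and 214 over the 3 WT libraries, a WT to N108 ratio of 73.1 (95% exact interval 24.7 to 357, counting error only). At the other end, LINC00960 had 461 counts over the 3 N108 libraries and 3 over the 3 WT libraries, a N108 to WT ratio of 150.0 (95% exact interval 51.0 to 730.2, counting error only). Against M3 cells, which had 2.89, 2.93 and 2.68 CPM, the log2 fold change was -0.28 ± 0.13, adjusted p = 0.1.

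Of the genes at least 2-fold apart with 1 CPM or more, 76 of the higher and 140 of the lower ones reached 10 CPM in the group with more. ACSL5, which activates long-chain fatty acids at mitochondria and is abundant in intestinal epithelium, had 428, 430.4 and 424 CPM in N108 cells, against 38.6, 38.8 and 42.2 CPM in WT cells, a 10.7-fold difference (3.42 ± 0.05, adjusted p = 2.3e-28). Against M3 cells, which had 654, 659 and 647 CPM, the log2 fold change was -0.61 ± 0.04, adjusted p = 4.9e-12. ANXA10, an annexin best known from gastric epithelium, had 31.0, 28.1 and 30.0 CPM in N108 cells, against 2.68, 2.64 and 2.38 CPM in WT cells (3.52 ± 0.09, adjusted p = 2.1e-22). Against M3 cells, which had 2.35, 2.26 and 2.24 CPM, the log2 fold change was 3.70 ± 0.09, adjusted p = 3.3e-22. RNF43, a ubiquitin ligase that removes Frizzled receptors and so restrains Wnt signalling, had 28.7, 29.7 and 28.8 CPM in N108 cells, against 4.38, 4.82 and 4.68 CPM in WT cells (2.65 ± 0.07, adjusted p = 3.0e-21). Against M3 cells, which had 2.82, 3.15 and 2.79 CPM, the log2 fold change was 3.31 ± 0.08, adjusted p = 3.3e-22. Its annotated span overlaps SUPT4H1 on the same strand, and counting of shared bases is not described. HEPH (hephaestin), the ferroxidase that helps iron leave enterocytes, had 1.75, 1.93 and 1.80 CPM in N108 cells, against 0.155, 0.200 and 0.280 CPM in WT cells (3.16 ± 0.21, adjusted p = 1.2e-12). ID4, an inhibitor of basic helix-loop-helix factors and a BMP target, had 5.03, 5.32 and 4.24 CPM in N108 cells, against 0.734, 0.814 and 0.620 CPM in WT cells (2.74 ± 0.18, adjusted p = 2.1e-12). KCNQ3, a voltage-gated potassium channel, had 2.62, 2.75 and 2.96 CPM in N108 cells, against 0.167, 0.276 and 0.200 CPM in WT cells (3.69 ± 0.19, adjusted p = 4.3e-15). The other 5 of the 12 highest, LINC01366, LUCAT1, LYL1, SEMA3E and FEZ1, had log2 fold changes from 2.66 to 3.85 at 1.44 to 6.18 CPM in N108 cells. No overlap with WT was a condition for choosing the 12.

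**Figure D2:**
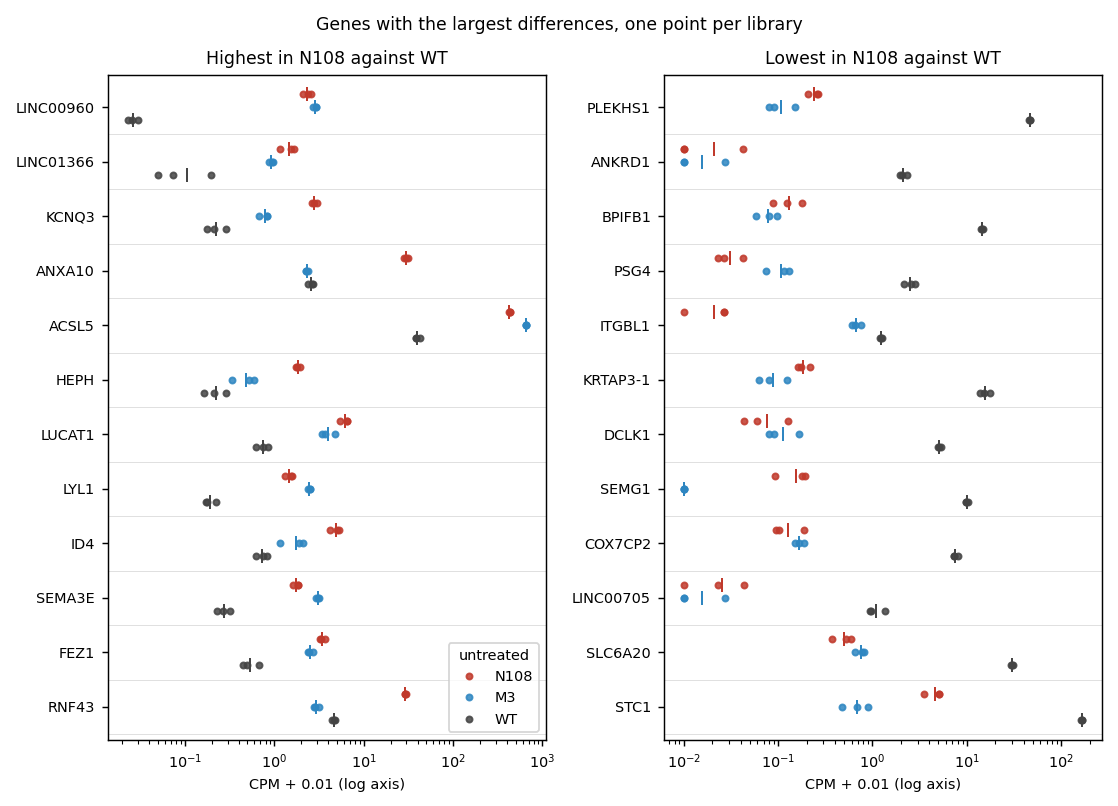
The 12 genes highest (left) and the 12 lowest (right) in N108 against WT cells, untreated, with one point for each library of N108, M3 and WT and a tick at the mean, as CPM + 0.01 on a log axis. ACSL5 stands at 427 CPM in N108 cells and 39.9 CPM in WT cells, and PLEKHS1 at 0.232 CPM in N108 cells and 46.4 CPM in WT cells.

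Of the genes that reached 50 CPM in one of the groups, APOBEC3G, FRMD4B and ANXA3 were, beside STC1, among the 5 lowest. FRMD4B, a scaffold protein, had 12.1, 13.0 and 13.9 CPM in N108 cells, against 123, 126 and 118 CPM in WT cells (-3.23 ± 0.06, adjusted p = 3.0e-25). ANXA3, an annexin, had 40.7, 42.7 and 40.9 CPM in N108 cells, against 276, 279 and 269.8 CPM in WT cells (-2.73 ± 0.04, adjusted p = 1.1e-26). These losses were of 9.40-fold and 6.63-fold in genes that WT cells expressed well. The highest beside ACSL5 were PALLD, HAS3, TSPAN6 and ADGRF1. PALLD (palladin), which binds actin, had 515, 521 and 498 CPM in N108 cells, against 94.9, 93.8 and 96.0 CPM in WT cells (2.43 ± 0.04, adjusted p = 1.4e-25). HAS3, a hyaluronan synthase, had 126, 117 and 117 CPM in N108 cells, against 24.6, 23.4 and 26.2 CPM in WT cells (2.28 ± 0.06, adjusted p = 2.8e-22). TSPAN6, a tetraspanin, had 59.5, 60.8 and 59.2 CPM in N108 cells, against 13.6, 14.6 and 13.2 CPM in WT cells (2.12 ± 0.05, adjusted p = 5.0e-22), and ADGRF1, an adhesion G protein-coupled receptor, had 74.9, 78.8 and 78.8 CPM in N108 cells, against 21.0, 20.8 and 22.1 CPM in WT cells (1.86 ± 0.05, adjusted p = 4.9e-22). That N108 and WT libraries did not overlap was a condition for choosing these 8 genes. The sources used here do not say whether counting used strand, so reads of ACSL5 cannot be told apart from those of ZDHHC6 where the annotated spans overlap. The same holds for PALLD with CBR4 and DDX60L, HAS3 with CHTF8, FEZ1 with STT3A and EI24, LUCAT1 with ADGRV1, ID4 with LNC-LBCS, ITGBL1 with FGF14, TNFAIP3 with WAKMAR2, and KRT8 with KRT18. Of the 220 genes named by rule or run, 61 overlap a tested gene on the other strand and 16 one on the same strand, among them HOXB3 with HOXB4, HOXB5 and HOXB6, HOXB7 with HOXB8, SATB1 with TBC1D5 and CENPA with SLC35F6.

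Intestinal stem cell and regenerative programmes moved in part. Crypt stem cells are kept by Wnt signalling, and damaged epithelium takes on a fetal-like state that depends on YAP. Of 19 tested adult stem cell markers of 27 listed, 9 passed higher and 5 lower (median log2 fold change 0.10, and 0.07 without N108 replicate 2). With TNF, 7 passed higher and 8 lower in N108 against WT (median -0.02), against 23% and 23.6% of all genes. Beside RNF43, EPHB2, a receptor that positions cells along the crypt, had 82.8, 78.2 and 84.1 CPM in N108 cells, against 51.7, 51.2 and 52.6 CPM in WT cells (0.66 ± 0.05, adjusted p = 2.6e-12). SOX9, a transcription factor of crypt cells, was lower, with 160.5, 151 and 148 CPM in N108 cells, against 248, 236 and 249 CPM in WT cells (-0.68 ± 0.05, adjusted p = 6.2e-12), and so was TNFRSF19 (2.92, 3.15 and 3.22 CPM in N108 cells, 5.83, 5.30 and 5.56 CPM in WT cells; -0.84 ± 0.10, adjusted p = 9.3e-08). AXIN2, a Wnt feedback gene chosen after its values were seen, averaged 18.6 ± 0.0614 CPM in N108 cells and 17.9 ± 0.910 CPM in WT cells and did not pass (adjusted p = 0.5). Among 21 Wnt/β-catenin targets, 8 passed higher and 5 lower (median -0.01, and 0.06 with the GC trend removed, 0.04 without N108 replicate 2 and 0.01 without WT replicate 3). MYC, the cell growth regulator, had 487, 467 and 469 CPM in N108 cells, against 248, 257 and 251 CPM in WT cells (0.91 ± 0.05, adjusted p = 2.3e-14). TNIK, a kinase of the TCF4 complex, had 139, 139 and 135 CPM in N108 cells, against 55.8, 52.8 and 55.3 CPM in WT cells (1.33 ± 0.05, adjusted p = 1.2e-17), and FGF9, a growth factor, had 1.58, 1.80 and 1.70 CPM in N108 cells, against 8.78, 8.49 and 8.22 CPM in WT cells (-2.32 ± 0.11, adjusted p = 4.2e-16).

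Of 28 fetal-like regenerative genes, 6 passed higher and 14 lower, with a median log2 fold change of -0.32. That median was -0.09 under the stricter low-count filter, and it was also smaller without N108 replicate 2 (-0.21). CLU (clusterin), a marker of revival stem cells, had 78.2, 75.8 and 80.3 CPM in N108 cells, against 153, 154 and 158 CPM in WT cells (-0.99 ± 0.05, adjusted p = 1.7e-15). ANXA3 fell, as given above, while ANXA10 rose.
Targets of YAP and TAZ, the coactivators at the end of the Hippo pathway, were lower in 15 of 24 tested and higher in 4 (median -0.37). CCN2 had 1.29, 1.19 and 1.36 CPM in N108 cells, against 5.05, 4.90 and 4.94 CPM in WT cells (-1.96 ± 0.13, adjusted p = 1.1e-12), and CCN1 had 9.65, 9.59 and 9.60 CPM in N108 cells, against 24.8, 26.7 and 25.8 CPM in WT cells (-1.42 ± 0.08, adjusted p = 4.7e-13); both are matricellular proteins. AMOTL2, a feedback inhibitor of YAP, had 43.6, 44.3 and 47.3 CPM in N108 cells, against 109, 111 and 113 CPM in WT cells (-1.30 ± 0.05, adjusted p = 3.7e-17). The 4 members called higher, CRIM1, AMOTL1, TEAD1 and GADD45A, did not exceed 0.34 on the log2 scale. M3 cells differed from the same WT libraries by a median of -0.61 over this list.

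Transcription factors of gut epithelium were more often higher than lower in N108 cells. Of 27 tested, 14 passed higher and 5 lower (median log2 fold change 0.22). HNF4A, a nuclear receptor that drives enterocyte genes, had 3.88, 3.83 and 3.89 CPM in N108 cells, against 0.567, 0.768 and 0.720 CPM in WT cells (2.51 ± 0.15, adjusted p = 1.4e-13). SATB1, a chromatin organiser, had 30.3, 30.4 and 28.5 CPM in N108 cells, against 13.8, 12.7 and 13.2 CPM in WT cells (1.17 ± 0.06, adjusted p = 5.3e-15), and TCF7L2, the main Wnt effector of the gut, had 202, 205 and 187 CPM in N108 cells, against 107, 107 and 98.9 CPM in WT cells (0.93 ± 0.06, adjusted p = 1.3e-13). The groups did not overlap for any of the 3. The 5 lower members were SOX9, FOXA1, EHF, ELF3 and ESRRA, with log2 fold changes from -0.75 to -0.15. Genes that mark differentiated cells are given next. Of 8 enterocyte genes above the filter of 35 listed, 1 passed higher and 5 lower. DPP4, a brush border peptidase, was the higher one, with 91.1, 92.4 and 89.4 CPM in N108 cells, against 27.7, 27.5 and 27.5 CPM in WT cells (1.72 ± 0.05, adjusted p = 5.1e-20). CEACAM1, an adhesion molecule, had 3.66, 3.57 and 4.11 CPM in N108 cells, against 22.7, 21.1 and 22.9 CPM in WT cells (-2.56 ± 0.08, adjusted p = 1.8e-19), and SLC5A1, the sodium-glucose transporter, had 0.806, 0.990 and 0.703 CPM in N108 cells, against 6.91, 6.40 and 6.04 CPM in WT cells (-2.94 ± 0.14, adjusted p = 1.6e-15). ALPG, an alkaline phosphatase with near-identical relatives, had 0.168, 0.169 and 0.0654 CPM in N108 cells, against 1.42, 1.37 and 1.66 CPM in WT cells. Of 15 goblet, Paneth and enteroendocrine genes, 4 passed higher, 3 of them under 1 CPM, and 5 lower. With the stricter low-count filter 1 was higher. LYZ (lysozyme) had 0.117, 0.0912 and 0.131 CPM in N108 cells, against 2.96, 2.53 and 2.52 CPM in WT cells (-4.56 ± 0.25, adjusted p = 2.2e-14), MUC13, a membrane mucin, had 0.269, 0.143 and 0.196 CPM in N108 cells, against 3.08, 3.25 and 2.7 CPM in WT cells (-3.92 ± 0.21, adjusted p = 8.8e-15), and SCG2, a secretogranin, had 29.1, 28.9 and 27.9 CPM in N108 cells, against 61.8, 59.4 and 61.3 CPM in WT cells (-1.09 ± 0.05, adjusted p = 4.1e-16).

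HOX genes, which encode position along the body axis, split by cluster. Of 32 tested, 8 passed higher and 11 lower, with a median log2 fold change of -0.03 that was 0.06 without N108 replicate 1. The lower ones were 9 of the HOXB cluster and 2 of HOXC, and the higher ones were 7 of HOXA and HOXD8. HOXB6 had 45.8, 46.2 and 47.9 CPM in N108 cells, against 92.6, 90.7 and 88.7 CPM in WT cells (-0.96 ± 0.05, adjusted p = 2.3e-15), and HOXB8 had 73.4, 71.8 and 72.3 CPM in N108 cells, against 129.7, 129 and 140.4 CPM in WT cells (-0.88 ± 0.05, adjusted p = 1.2e-13). HOXB4 had 17.1, 16.6 and 14.8 CPM in N108 cells, against 38.0, 36.4 and 37.9 CPM in WT cells (-1.21 ± 0.06, adjusted p = 5.1e-15) and HOXB3 had 19.99, 20.2 and 19.4 CPM in N108 cells, against 35.6, 33.9 and 35.0 CPM in WT cells (-0.81 ± 0.05, adjusted p = 3.6e-13). Against M3 cells, which had 29.6, 27.1 and 29.6 CPM, the log2 fold change of HOXB6 was 0.70 ± 0.05, adjusted p = 1.2e-11. Among the HOXA genes, picked after their values were seen, HOXA11 averaged 17.3 ± 0.752 CPM in N108 cells and 8.92 ± 0.752 CPM in WT cells (log2 fold change 0.96) and HOXA13, which marks hindgut, averaged 31.5 ± 1.17 CPM in N108 cells and 18.5 ± 0.415 CPM in WT cells (0.77). The Polycomb complexes that hold such genes silent, with the enzymes that oppose them, showed 9 members higher and 12 lower of 35 (median -0.08), and 5 passed higher without N108 replicate 2. The median was -0.05 without N108 replicate 1, 4.6e-04 without N108 replicate 3 and -0.01 without WT replicate 1. CBX6 had 308, 286 and 301 CPM in N108 cells, against 522, 539 and 561 CPM in WT cells (-0.86 ± 0.04, adjusted p = 2.6e-15), CBX7 had 34.7, 31.1 and 32.8 CPM in N108 cells, against 55.5, 54.6 and 58.4 CPM in WT cells (-0.77 ± 0.05, adjusted p = 8.4e-13) and PHC2 had 207, 198 and 199 CPM in N108 cells, against 105, 107 and 109.8 CPM in WT cells (0.91 ± 0.05, adjusted p = 8.8e-15), all 3 being subunits of the PRC1 type. PHF1, of the PRC2 type, had 29.5, 28.0 and 30.3 CPM in N108 cells, against 49.0, 49.3 and 51.3 CPM in WT cells (-0.77 ± 0.06, adjusted p = 7.5e-11). EZH2, the methyltransferase of PRC2, averaged 81.5 ± 3.70 CPM in N108 cells and 87.0 ± 1.90 CPM in WT cells and did not pass (adjusted p = 0.099).

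**Figure D3:**
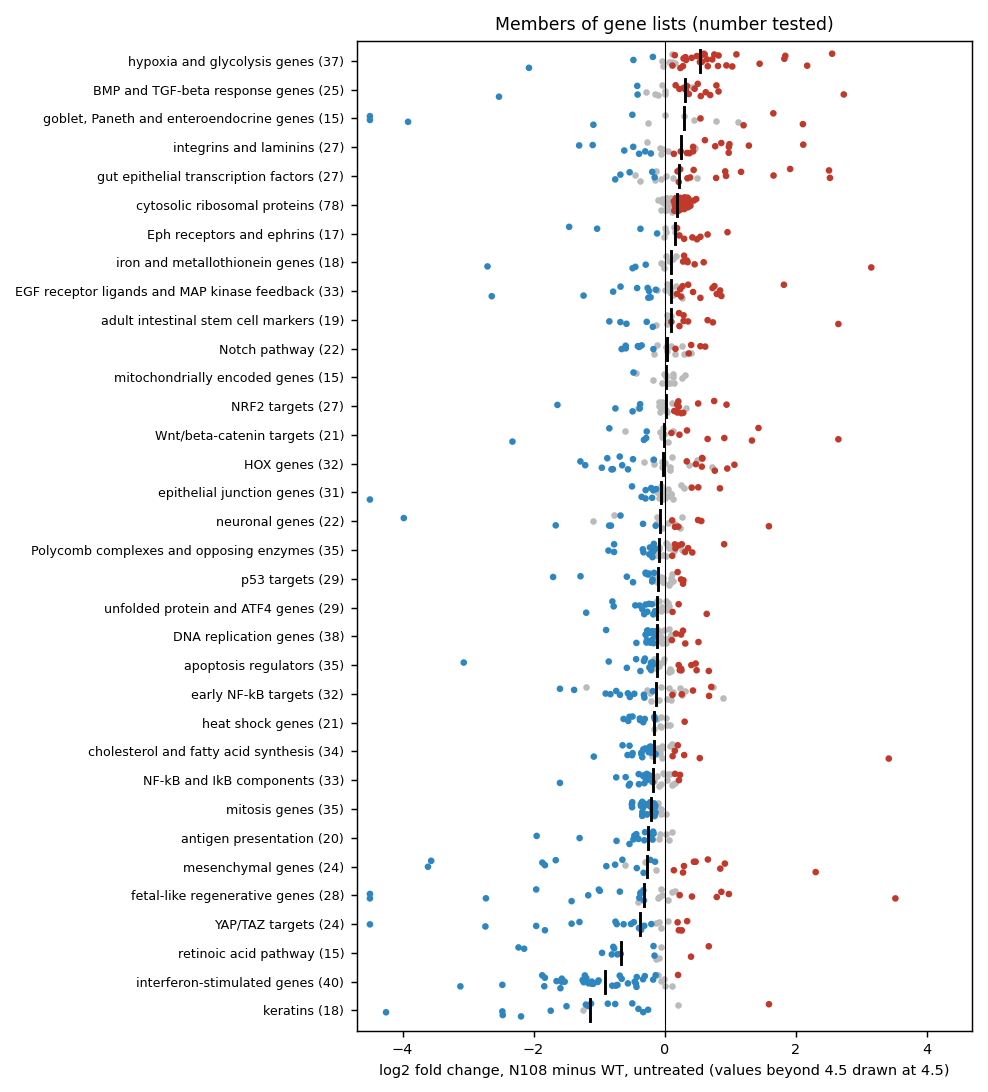
Log2 fold changes of N108 over WT cells, untreated, for the tested members of gene lists with at least 15 tested members, ordered by the list's median (black bar). Red and blue points are members called higher and lower, grey points did not pass, and values beyond 4.5 are drawn at 4.5. Keratins (-1.14) and interferon-stimulated genes (-0.90) have the lowest medians, hypoxia and glycolysis genes (0.54) the highest.

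Keratins, the intermediate filament proteins of epithelia, were lower in N108 cells. Of 18 tested, 15 passed lower (83.3%) and 1 higher (median log2 fold change -1.14). With the stricter low-count filter 10 were lower. KRT80 had 10.9, 10.7 and 12.1 CPM in N108 cells, against 50.5, 52.2 and 51.4 CPM in WT cells (-2.19 ± 0.06, adjusted p = 1.9e-21), KRT23 had 43.7, 40.8 and 44.3 CPM in N108 cells, against 142, 145 and 143 CPM in WT cells (-1.74 ± 0.06, adjusted p = 8.8e-20), KRT15 had 20.1, 19.7 and 20.5 CPM in N108 cells, against 56.0, 55.7 and 58.9 CPM in WT cells (-1.50 ± 0.06, adjusted p = 5.3e-17) and KRT13 had 17.96, 16.7 and 17.1 CPM in N108 cells, against 94.2, 90.9 and 103 CPM in WT cells (-2.48 ± 0.08, adjusted p = 2.7e-16). The keratins of simple epithelium, which are the abundant ones, differed less. KRT8 had 2326, 2219 and 2387 CPM in N108 cells, against 2849, 2855 and 2988 CPM in WT cells (-0.33 ± 0.05, adjusted p = 3.0e-06), and its partner KRT18 had 1019, 965 and 1016 CPM in N108 cells, against 1288, 1311 and 1358 CPM in WT cells (-0.40 ± 0.05, adjusted p = 2.9e-07). The one called higher was KRT17, at 0.458 ± 0.0569 CPM in N108 cells and 0.154 ± 0.0463 CPM in WT cells.

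Several keratin genes stand in a row on chromosome 17, and such neighbours moved together. Runs of at least 4 neighbouring tested genes that were each called at least 2-fold in the same direction were counted along the genome (GENCODE 29, GRCh38). There were 7 such runs with 44 genes in all, and in each of them the genes were lower in N108 cells. Genes that failed the low-count filter were skipped, so the length of a run depends on that filter. Some genes in the runs were counted almost only in WT cells. LINC01447 averaged 0 CPM in N108 cells, 0.006 CPM in M3 cells and 0.332 CPM in WT cells. The drop was not particular to N108. M3 means also lay below WT means, except at the antisense genes ENSG00000234859 and ENSG00000229732. KRT13, for example, averaged 13.2 CPM in M3 cells, SLPI 0.130 CPM, TNS3 32.4 CPM and MEIS2 12.4 CPM. The longest run, of 13 genes from KRTAP4-9 to KRT15, lay at chr17:41105332-41522529, and a second of 7 genes from KRT20 to KRTAP2-3 lay at chr17:40875941-41060114. They hold type I keratins, hair keratin-associated proteins and a few pseudogenes and antisense genes, and 11 of their 20 genes were under 1 CPM in both groups. KRT32 had 1.46, 1.381 and 1.36 CPM in N108 cells, against 9.79, 10.7 and 11.1 CPM in WT cells (-2.91 ± 0.12, adjusted p = 3.1e-17), KRT36 had 0.252, 0.208 and 0.360 CPM in N108 cells, against 5.97, 5.08 and 6.24 CPM in WT cells (-4.41 ± 0.19, adjusted p = 6.5e-17) and KRTAP2-3 had 0.487, 0.573 and 0.393 CPM in N108 cells, against 4.30, 3.76 and 3.60 CPM in WT cells (-2.99 ± 0.16, adjusted p = 1.5e-14).

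The run at chr22:38982347-39104067 held the APOBEC3 genes, cytidine deaminases that mutate viral DNA. APOBEC3C had 191, 187 and 189 CPM in N108 cells, against 452, 449.8 and 436 CPM in WT cells (-1.24 ± 0.05, adjusted p = 2.6e-17), and APOBEC3F had 49.9, 47.4 and 47.9 CPM in N108 cells, against 143, 142 and 141 CPM in WT cells (-1.55 ± 0.04, adjusted p = 6.2e-21). APOBEC3B had 9.65, 10.5 and 9.72 CPM in N108 cells, against 23.2, 24.2 and 23.9 CPM in WT cells (-1.25 ± 0.06, adjusted p = 2.2e-15). APOBEC3G had 4.83, 4.33 and 4.69 CPM in N108 cells, against 50.4, 48.2 and 52.4 CPM in WT cells (-3.45 ± 0.07, adjusted p = 7.7e-24). All 6 APOBEC3 genes of the run fell, by 1.24 to 3.45 on the log2 scale, and reads shared between these paralogs could be split among them. APOBEC3G was higher in N108 than in M3 cells, which had 0.104, 0.0488 and 0.0701 CPM (5.92 ± 0.19, adjusted p = 3.2e-19).
The run at chr20:45174876-45254564 held PI3, SEMG1, SEMG2 and SLPI. SLPI, a secreted inhibitor of neutrophil proteases, had 0.873, 0.808 and 0.785 CPM in N108 cells, against 16.97, 17.8 and 19.6 CPM in WT cells (-4.46 ± 0.11, adjusted p = 1.8e-22), and PI3 (elafin), another, had 0.0671, 0.0391 and 0.0491 CPM in N108 cells, against 0.979, 0.829 and 1.28 CPM in WT cells (-4.27 ± 0.42, adjusted p = 1.2e-08). SEMG2 had 1 count over the 3 N108 libraries and 154 over the 3 WT libraries, a WT to N108 ratio of 158 (95% exact interval 27.9 to 6270, counting error only). In the other 3 runs, 1, 3 and 2 genes reached 1 CPM on chromosomes 7, 11 and 15. TNS3 (tensin 3), a focal adhesion protein in the run at chr7:47275154-47948491, had 47.7, 43.4 and 45.0 CPM in N108 cells, against 187, 193 and 201 CPM in WT cells (-2.10 ± 0.05, adjusted p = 5.6e-22). MEIS2, a homeobox factor, lay in the run at chr15:35546195-37101299 and had 13.7, 13.4 and 13.4 CPM in N108 cells, against 85.6, 86.4 and 83.3 CPM in WT cells (-2.66 ± 0.06, adjusted p = 1.8e-23). PTS, an enzyme of tetrahydrobiopterin synthesis, lay in the run at chr11:112175467-112795854 and had 19.9, 19.0 and 19.6 CPM in N108 cells, against 50.1, 49.1 and 48.7 CPM in WT cells (-1.34 ± 0.05, adjusted p = 7.2e-18). The median log2 fold change of a chromosome lay between -0.07 and 0.09 over 23 chromosomes.

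**Figure D4:**
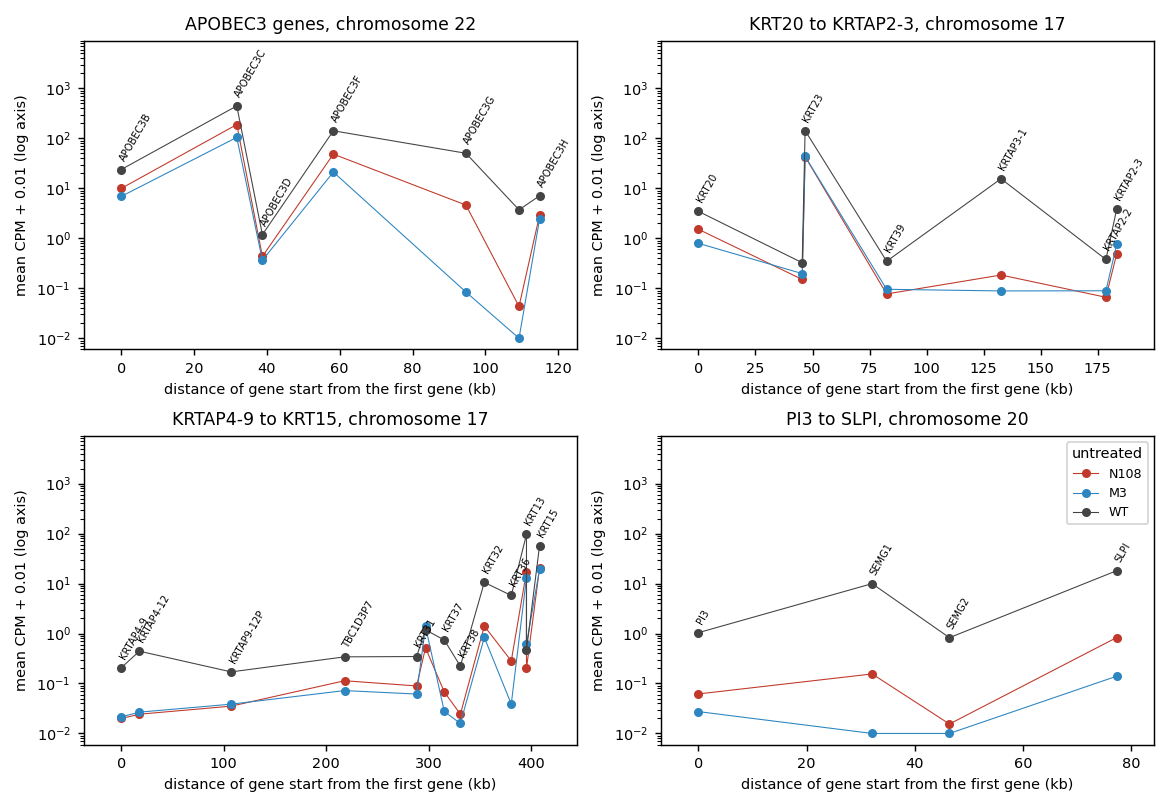
Mean levels of neighbouring genes in 4 runs on chromosomes 22, 17 and 20, as CPM + 0.01 on a log axis against the distance of each gene's start from the first gene of the run, in untreated N108, M3 and WT cells (mean of 3 libraries; lines join neighbours only to guide the eye). N108 lies below WT at every gene, for APOBEC3C at 189 CPM against 446 CPM.

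Genes of the hypoxia response and of glycolysis were higher in N108 cells. Hypoxia-inducible factors switch on glucose uptake, glycolysis and pH control, and most of these genes are also active in tumour cells at normal oxygen. Of 37 tested, 28 passed higher (75.7%, against 20.9% of all genes) and 3 lower, and 7 were at least 2-fold higher (median log2 fold change 0.54). CA12, a carbonic anhydrase, had 20.9, 19.0 and 19.2 CPM in N108 cells, against 5.498, 5.43 and 5.74 CPM in WT cells (1.83 ± 0.07, adjusted p = 1.0e-18). KDM3A, a histone demethylase induced by hypoxia, had 145, 162 and 143 CPM in N108 cells, against 72.9, 71.1 and 76.1 CPM in WT cells (1.03 ± 0.06, adjusted p = 5.3e-14), and EPAS1, which encodes HIF-2α, had 125, 119.6 and 124 CPM in N108 cells, against 80.3, 81.2 and 79.6 CPM in WT cells (0.61 ± 0.04, adjusted p = 6.0e-12). NDRG1, ANGPTL4 and PDK1 were picked after their values were seen. NDRG1 averaged 354 ± 15.9 CPM in N108 cells and 98.7 ± 8.46 CPM in WT cells (log2 fold change 1.84), ANGPTL4, which inhibits lipoprotein lipase, averaged 26.8 ± 1.98 CPM in N108 cells and 4.56 ± 0.267 CPM in WT cells (2.56), and PDK1, which shuts pyruvate out of mitochondria, averaged 42.0 ± 5.79 CPM in N108 cells and 15.4 ± 0.706 CPM in WT cells (1.45). Enzymes of glycolysis moved less, LDHA by 0.65, ENO1 by 0.33 and GAPDH by 0.28. SLC2A3, a glucose transporter, was the strongest exception, with 3.16, 3.21 and 3.39 CPM in N108 cells, against 13.8, 12.4 and 14.8 CPM in WT cells (-2.07 ± 0.09, adjusted p = 1.7e-16), and the other lower members were PFKFB3 (-0.48) and PKM (-0.18). HIF1A averaged 224 ± 5.27 CPM in N108 cells and 208 ± 7.04 CPM in WT cells and VEGFA 51.7 ± 1.45 CPM in N108 cells and 47.7 ± 1.09 CPM in WT cells, and neither passed. The core of the hypoxia response element, ACGTG, stood in 15 of 33 promoters of members (45.5%) and in 22.9% of promoters of tested genes, read on both strands over 250 bases. With TNF the list's median was 0.52, with 30 members higher and 3 lower.

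Ribosomal protein genes were slightly higher in N108 cells, and mitosis genes slightly lower. Of 78 tested genes for proteins of the cytosolic ribosome, 50 passed higher and 0 lower (edgeR; 0 at an unadjusted p under 0.05, 0 with DESeq2). No member reached 2-fold (median log2 fold change 0.20, with members from -0.09 to 0.48). RPL22 had 216, 225 and 209 CPM in N108 cells, against 159.6, 154 and 152 CPM in WT cells (0.48 ± 0.05, adjusted p = 3.6e-09), RPS18 had 1800, 1769 and 1909 CPM in N108 cells, against 1365, 1408 and 1246 CPM in WT cells (0.45 ± 0.05, adjusted p = 9.9e-08) and RPL9 had 417, 441 and 434 CPM in N108 cells, against 321, 331 and 332 CPM in WT cells (0.39 ± 0.05, adjusted p = 2.6e-07). Many of these genes have processed pseudogenes that can take a share of their reads. In M3 cells the list's median difference from the same WT libraries was 0.55. Set against M3 directly, 77 of the 78 were lower in N108, against 15% of all genes. Of 35 mitosis genes, 24 passed lower (median -0.21) and 0 higher (edgeR; 0 at an unadjusted p under 0.05, 0 with DESeq2). AURKA, a spindle kinase, had 61.7, 61.1 and 62.8 CPM in N108 cells, against 86.6, 89.7 and 86.3 CPM in WT cells (-0.50 ± 0.05, adjusted p = 3.6e-09), CENPA, the centromere histone, had 19.4, 19.0 and 18.8 CPM in N108 cells, against 27.6, 26.3 and 26.5 CPM in WT cells (-0.49 ± 0.05, adjusted p = 2.6e-08), and KIF20A, a kinesin of cytokinesis, had 107.9, 106 and 109 CPM in N108 cells, against 133, 143 and 134 CPM in WT cells (-0.34 ± 0.04, adjusted p = 4.4e-07). UBE2C, which starts cyclin destruction, had a log2 fold change of -0.36. MKI67, the proliferation antigen, averaged 494 ± 9.65 CPM in N108 cells and 529 ± 38.8 CPM in WT cells and did not pass (adjusted p = 0.63). DNA replication genes were mixed, with 6 higher and 19 lower of 38 (median -0.12, and -0.07 with the GC trend removed and a replicate block in the fit). CCNE2, a cyclin of S phase entry, had 20.02, 21.1 and 18.9 CPM in N108 cells, against 39.2, 37.8 and 34.5 CPM in WT cells (-0.89 ± 0.08, adjusted p = 5.6e-10), and POLE2, a polymerase subunit, had 20.7, 20.03 and 20.7 CPM in N108 cells, against 14.3, 14.6 and 14.04 CPM in WT cells (0.52 ± 0.06, adjusted p = 2.1e-07). E2F1, a transcription factor of S phase genes, had 40.2, 38.9 and 44.2 CPM in N108 cells, against 54.2, 55.5 and 56.4 CPM in WT cells (-0.43 ± 0.05, adjusted p = 2.2e-07). RRM2, a subunit of ribonucleotide reductase, had 358, 365 and 353 CPM in N108 cells, against 428, 441 and 425 CPM in WT cells (-0.27 ± 0.04, adjusted p = 3.8e-06). Of 15 mitochondrially encoded genes, 1 passed, the ribosomal RNA MT-RNR1, with 688, 811 and 925 CPM in N108 cells, against 1110, 1238 and 1025 CPM in WT cells (-0.48 ± 0.09, adjusted p = 3.0e-04). That count was 2 lower without WT replicate 3, and 1 member was called higher without N108 replicate 1.

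Signalling pathways of the crypt differed in their direction. For BMP and TGF-β, which drive differentiation toward the top of the crypt, 14 of 25 passed higher and 3 lower (median log2 fold change 0.31). With TNF, 9 passed higher and 5 lower in N108 against WT (median 0.10), against 23% and 23.6% of all genes. Beside ID4, the ligand BMP4 had 176, 159.8 and 170.1 CPM in N108 cells, against 104, 102 and 107 CPM in WT cells (0.70 ± 0.05, adjusted p = 1.1e-12), the latent TGF-β binding protein LTBP1 had 19.7, 18.4 and 17.6 CPM in N108 cells, against 10.7, 10.6 and 10.96 CPM in WT cells (0.79 ± 0.07, adjusted p = 2.7e-10), and the receptor TGFBR2 had 69.4, 67.5 and 67.6 CPM in N108 cells, against 48.0, 48.7 and 47.2 CPM in WT cells (0.51 ± 0.05, adjusted p = 7.0e-09). The 3 lower members were INHBA, CHRD and SMAD6. In the retinoic acid pathway, which acts through nuclear receptors, 2 of 15 passed higher and 10 lower (median log2 fold change -0.67). That median was -0.41 with the stricter low-count filter and -0.42 without WT replicate 3. The enzyme ALDH1A3, which makes retinoic acid, had 877, 844 and 862 CPM in N108 cells, against 1474, 1451 and 1521 CPM in WT cells (-0.78 ± 0.04, adjusted p = 7.9e-15). CYP26B1, which degrades it, had 25.0, 21.5 and 22.96 CPM in N108 cells, against 45.8, 43.0 and 45.8 CPM in WT cells (-0.96 ± 0.06, adjusted p = 5.7e-14). CRABP2, which carries it to the nucleus, had 313, 306 and 319 CPM in N108 cells, against 487, 485 and 521 CPM in WT cells (-0.67 ± 0.05, adjusted p = 9.5e-12), and TGM2, a transglutaminase induced by it, had 18.8, 16.8 and 16.9 CPM in N108 cells, against 76.1, 77.3 and 78.5 CPM in WT cells (-2.14 ± 0.05, adjusted p = 1.8e-22). For all 4 genes every N108 library was below every WT library.

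Among ligands of the EGF receptor family and feedback genes of MAP kinase signalling, 13 of 33 passed higher and 10 lower (median log2 fold change 0.10). EGR1, an immediate early transcription factor, had 111, 109 and 116 CPM in N108 cells, against 30.1, 33.5 and 31.6 CPM in WT cells (1.82 ± 0.06, adjusted p = 8.2e-20). AREG (amphiregulin), an EGF receptor ligand, had 123, 121 and 129.5 CPM in N108 cells, against 67.5, 68.4 and 68.6 CPM in WT cells (0.87 ± 0.05, adjusted p = 1.7e-14), and SPRY4, a feedback inhibitor, had 109.7, 105 and 104 CPM in N108 cells, against 64.2, 63.4 and 64.4 CPM in WT cells (0.73 ± 0.04, adjusted p = 4.5e-14). DUSP4, a MAP kinase phosphatase, was lower, with 199.8, 189 and 182 CPM in N108 cells, against 452, 448 and 447 CPM in WT cells (-1.24 ± 0.04, adjusted p = 2.1e-19), while its relative DUSP6 was higher by 0.85. Of Eph receptors and ephrins, which sort cells along the crypt, 8 of 17 passed higher and 4 lower (median log2 fold change 0.16). EPHA4 had 10.3, 10.1 and 10.5 CPM in N108 cells, against 29.4, 27.2 and 28.2 CPM in WT cells (-1.46 ± 0.06, adjusted p = 5.4e-18), EPHA2 had 123, 112 and 128 CPM in N108 cells, against 242, 247 and 252 CPM in WT cells (-1.03 ± 0.06, adjusted p = 1.1e-14), and the ligand EFNB1 had 47.9, 44.0 and 45.8 CPM in N108 cells, against 31.2, 30.5 and 32.6 CPM in WT cells (0.55 ± 0.05, adjusted p = 2.4e-09). In the Notch pathway, 5 of 22 passed higher and 7 lower (median log2 fold change 0.03), and the higher count ranged from 3 to 8 over the other settings, the lowest without WT replicate 1. The ligand JAG1 had 89.7, 85.8 and 84.02 CPM in N108 cells, against 55.2, 55.5 and 58.3 CPM in WT cells (0.62 ± 0.05, adjusted p = 3.0e-11), the coactivator MAML2 had 12.3, 11.9 and 12.4 CPM in N108 cells, against 19.4, 19.8 and 18.4 CPM in WT cells (-0.66 ± 0.08, adjusted p = 8.2e-08), and NRARP, a Notch feedback gene, had 26.2, 26.5 and 27.4 CPM in N108 cells, against 18.4, 16.8 and 19.7 CPM in WT cells (0.55 ± 0.07, adjusted p = 4.2e-07). RFNG, a glycosyltransferase that modifies Notch, had 43.2, 39.6 and 41.7 CPM in N108 cells, against 52.96, 52.5 and 53.3 CPM in WT cells (-0.35 ± 0.05, adjusted p = 7.0e-06).

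For integrins and laminins, which hold epithelium to its basement membrane, 14 of 27 passed higher and 7 lower (median log2 fold change 0.25). LAMA4, a laminin chain, had 9.40, 9.32 and 9.55 CPM in N108 cells, against 2.05, 2.01 and 2.52 CPM in WT cells (2.12 ± 0.09, adjusted p = 6.5e-17), and ITGB4, the hemidesmosome integrin, had 401, 379 and 391 CPM in N108 cells, against 214, 208 and 221 CPM in WT cells (0.87 ± 0.05, adjusted p = 3.1e-14). ITGB5 was lower, with 132, 120.1 and 132 CPM in N108 cells, against 193, 197 and 198 CPM in WT cells (-0.62 ± 0.05, adjusted p = 5.5e-11). Among genes typical of mesenchymal cells, 9 of 24 passed higher and 12 lower (median log2 fold change -0.26), and with the stricter low-count filter the median was -0.14. TGFB1 had 100.1, 92.5 and 95.03 CPM in N108 cells, against 50.8, 50.03 and 51.1 CPM in WT cells (0.92 ± 0.06, adjusted p = 5.7e-13). SPARC, a matricellular protein, had 36.2, 34.0 and 39.5 CPM in N108 cells, against 56.8, 57.6 and 56.9 CPM in WT cells (-0.64 ± 0.06, adjusted p = 3.0e-10). Against M3 cells, which had 0.398, 0.358 and 0.473 CPM, the log2 fold change was 6.48 ± 0.10, adjusted p = 2.6e-26. COL6A3, a collagen chain, had 0.0671, 0.0391 and 0.0654 CPM in N108 cells, against 0.695, 0.691 and 0.740 CPM in WT cells (-3.61 ± 0.36, adjusted p = 4.8e-09). Of 31 epithelial junction genes, 3 passed higher and 9 lower, and the higher count was 5 without N108 replicate 3. DSG2, a desmosomal cadherin, had 341, 349.5 and 335 CPM in N108 cells, against 239, 248 and 231 CPM in WT cells (0.51 ± 0.05, adjusted p = 1.5e-09), and CLDN4, a tight junction claudin, had 217, 199.9 and 209.6 CPM in N108 cells, against 295, 294 and 295 CPM in WT cells (-0.50 ± 0.05, adjusted p = 2.6e-08). DSC2, another desmosomal cadherin, had a log2 fold change of 0.41.

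For targets of p53, which is intact in HCT116, 4 of 29 passed higher and 11 lower (median log2 fold change -0.10). That median was -0.04 with the GC trend removed. PLK2, a polo-like kinase, had 65.7, 64.5 and 68.2 CPM in N108 cells, against 214, 213 and 218 CPM in WT cells (-1.70 ± 0.05, adjusted p = 1.8e-21), GDF15, a secreted stress cytokine, had 89.3, 73.5 and 82.8 CPM in N108 cells, against 195, 188 and 215 CPM in WT cells (-1.28 ± 0.09, adjusted p = 6.5e-09), and BBC3 (PUMA), a killer of the BCL2 family, had 29.4, 28.9 and 30.1 CPM in N108 cells, against 43.8, 41.4 and 46.8 CPM in WT cells (-0.58 ± 0.06, adjusted p = 1.9e-08). TP53I3 had a log2 fold change of -0.48. For heat shock genes, 1 of 21 passed higher and 10 lower (median log2 fold change -0.16). With the GC trend removed, 15 were lower. HSPH1, a chaperone of the HSP110 family, had 242, 227 and 229 CPM in N108 cells, against 337, 337 and 339.6 CPM in WT cells (-0.54 ± 0.05, adjusted p = 4.0e-10), and the chaperone partners DNAJA4, DNAJA1 and DNAJB1 had log2 fold changes of -0.49, -0.37 and -0.38. For the unfolded protein and ATF4 responses, 3 of 29 passed higher and 13 lower (median log2 fold change -0.12). PSAT1, an enzyme of serine synthesis, had 109, 107 and 107.8 CPM in N108 cells, against 192, 189.9 and 181 CPM in WT cells (-0.80 ± 0.05, adjusted p = 9.4e-13), ATF3 had 9.92, 10.4 and 11.7 CPM in N108 cells, against 18.03, 17.99 and 19.0 CPM in WT cells (-0.78 ± 0.07, adjusted p = 5.1e-10), and DDIT4, an inhibitor of mTORC1, had 89.4, 86.1 and 83.8 CPM in N108 cells, against 54.7, 53.2 and 58.3 CPM in WT cells (0.64 ± 0.07, adjusted p = 7.9e-08). CHAC1, which degrades glutathione, had 3.31, 3.06 and 3.17 CPM in N108 cells, against 7.94, 6.85 and 7.0 CPM in WT cells (-1.20 ± 0.11, adjusted p = 2.0e-09). For targets of NRF2, 10 of 27 passed higher and 5 lower (median log2 fold change 0.02), and the lower count was 3 without N108 replicate 3. The median had no steady sign, at -1.6e-04 without N108 replicate 1, 0.00893 without replicate 2 and 0.00265 without replicate 3. ABCC2, an export pump, had 506, 521 and 539 CPM in N108 cells, against 363, 368 and 366 CPM in WT cells (0.51 ± 0.05, adjusted p = 9.2e-10), and FTH1, the ferritin heavy chain, had 1541, 1479 and 1636 CPM in N108 cells, against 2171, 2153 and 2209 CPM in WT cells (-0.49 ± 0.05, adjusted p = 1.2e-08). OSGIN1 and AKR1C3 had log2 fold changes of -0.75 and 0.95.

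In iron handling and metallothionein genes, 7 of 18 passed higher and 4 lower (median log2 fold change 0.10). Beside HEPH, LCN2, a siderophore-binding protein that is also an NF-κB target, had 4.03, 4.22 and 4.27 CPM in N108 cells, against 27.4, 28.1 and 26.1 CPM in WT cells (-2.70 ± 0.08, adjusted p = 5.2e-20). Among genes of cholesterol and fatty acid synthesis, 6 of 34 passed higher and 17 lower (median log2 fold change -0.16). SREBF1, a transcription factor of lipid synthesis, had 269, 252 and 265 CPM in N108 cells, against 399, 401 and 427 CPM in WT cells (-0.64 ± 0.05, adjusted p = 7.9e-11), and INSIG1, which retains it in the endoplasmic reticulum, had 71.5, 74.4 and 72.9 CPM in N108 cells, against 109.5, 107 and 107.5 CPM in WT cells (-0.57 ± 0.05, adjusted p = 1.1e-10). ACSL5 was the one large rise in this list. For apoptosis regulators, 8 of 35 passed higher and 13 lower (median log2 fold change -0.12). BCL2L1, which encodes the survival protein BCL-XL, had 229, 219.9 and 227 CPM in N108 cells, against 397, 404 and 419.6 CPM in WT cells (-0.85 ± 0.04, adjusted p = 2.3e-15), and TNFRSF10D, a decoy receptor for TRAIL, had 88.9, 96.5 and 93.7 CPM in N108 cells, against 68.4, 66.5 and 66.0 CPM in WT cells (0.47 ± 0.05, adjusted p = 3.4e-09). Of 22 neuronal genes, 6 passed higher and 7 lower. With the GC trend removed 9 were higher and 7 lower, and without N108 replicate 1 or WT replicate 2 the higher count was 4. The list held CNTNAP2, a neurexin relative, at 21.5, 22.2 and 20.9 CPM in N108 cells, against 6.64, 8.21 and 6.58 CPM in WT cells (1.59 ± 0.09, adjusted p = 1.1e-14) and NCAM1 at 8.04, 7.66 and 8.87 CPM in N108 cells, against 14.7, 14.7 and 14.7 CPM in WT cells (-0.85 ± 0.06, adjusted p = 1.3e-11). Among 5 cancer-testis and germline genes, 2 passed higher and 1 lower, and with DESeq2 or without N108 replicate 2 or 3 or WT replicate 1 or 3 the higher count was 1. Of the neuronal genes, L1CAM, an adhesion molecule, and STMN3 had log2 fold changes of -0.67 and 0.56.

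M3 is the other mutant line, and N108 was set against it by the same test to see which levels differed between the mutants. By that test 5994 genes differed (31.5%). N108 was at least 2-fold higher than both WT and M3 in 78 genes (0.41%) and at least 2-fold lower than both in 52 (0.273%). Of these, 32 and 16 reached 1 CPM. The 2 comparisons share the N108 libraries. The 10 genes farthest from both lines in each direction, a choice made after the values were seen, are drawn in the plot of levels in the 3 genotypes. Among the higher ones, ANXA10 and RNF43 stood out by level, as given above. CAPN13, a calpain protease, had 4.46, 5.11 and 4.78 CPM in N108 cells, against 0.658, 0.731 and 0.859 CPM in M3 cells and 1.20, 1.06 and 1.4 CPM in WT cells. BHLHE41, a circadian repressor, had 11.4, 11.7 and 11.2 CPM in N108 cells, against 3.24, 3.32 and 3.07 CPM in M3 cells and 3.54, 3.19 and 2.80 CPM in WT cells. DPP4 had 26.3, 24.5 and 24.0 CPM in M3 cells, HNF4A 1.11, 1.25 and 0.929 CPM and LAMA4 2.89, 2.58 and 2.68 CPM, close to their WT levels given above in the case of DPP4 and LAMA4. SNED1, a matrix protein, had 31.0, 29.4 and 29.2 CPM in N108 cells, against 8.601, 8.71 and 8.80 CPM in M3 cells and 8.78, 9.58 and 9.84 CPM in WT cells.

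The genes lower in N108 than in both lines began with PSG4, ITGBL1 and LINC00326 and included LINC02458, ZNF846 and NFKBIA. GALNT7, an enzyme of mucin-type glycosylation, had 10.8, 12.03 and 10.9 CPM in N108 cells, against 43.3, 42.2 and 36.6 CPM in M3 cells and 39.2, 37.2 and 37.4 CPM in WT cells. CHST4, a sulfotransferase, had 0.957, 0.990 and 0.965 CPM in N108 cells, against 3.44, 3.51 and 3.68 CPM in M3 cells and 3.81, 4.05 and 4.42 CPM in WT cells. GPC3, a glypican, had 1.34, 1.36 and 1.77 CPM in N108 cells, against 5.11, 4.65 and 5.52 CPM in M3 cells and 4.27, 4.498 and 4.38 CPM in WT cells. OVOL2, a repressor of mesenchymal genes, had 0.705, 0.326 and 0.540 CPM in N108 cells, against 1.57, 1.64 and 1.51 CPM in M3 cells and 1.36, 1.61 and 1.48 CPM in WT cells. Its span overlaps SNX5 and SNORD17 on the same strand and MGME1 on the other. Log2 fold changes of N108 over M3 were -1.86 for GALNT7, -1.86 for CHST4, -1.78 for GPC3 and -1.62 for OVOL2.

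**Figure D5:**
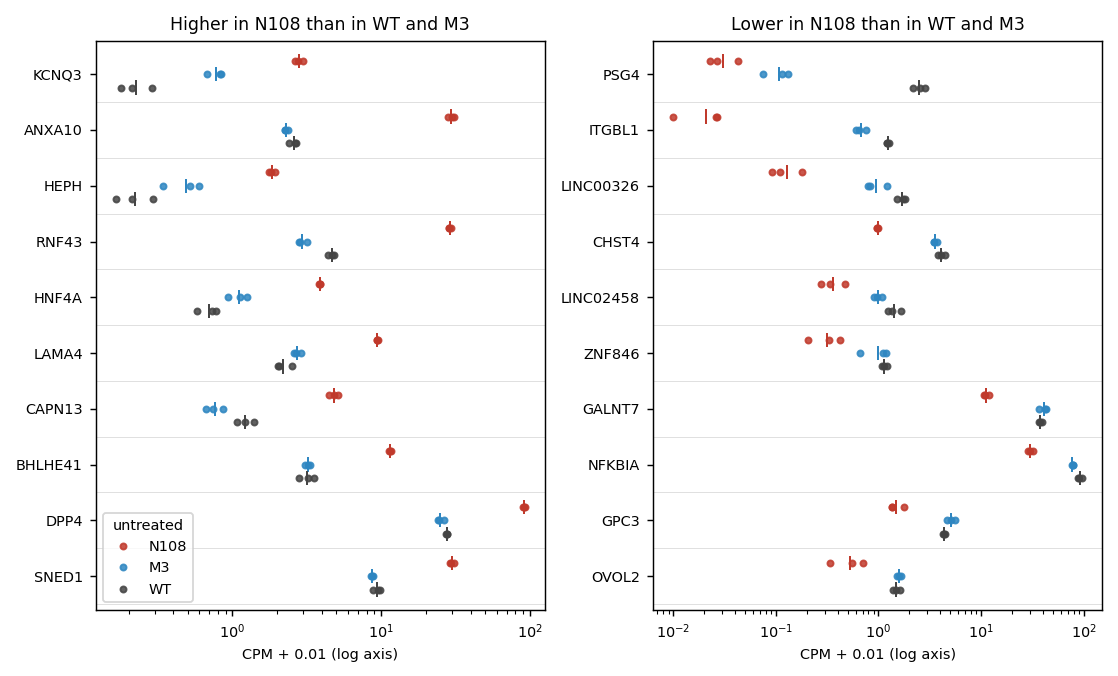
Levels of the 10 genes highest (left) and the 10 lowest (right) in N108 against both M3 and WT cells, untreated, as CPM + 0.01 on a log axis, with one point for each library and a tick at the mean of 3. ANXA10 stands at 29.7 CPM in N108 cells, 2.29 CPM in M3 cells and 2.57 CPM in WT cells.

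The same genotypes were also sequenced after TNF, in 6 libraries whose levels do not enter the untreated fold changes. They share the filter and the estimate of spread with the untreated libraries, since all were fitted together. The genotypes are also the same, so the 2 comparisons are not independent. There 8886 genes differed between N108 and WT cells (46.7%). Of the 210 genes at least 2-fold higher untreated with 1 CPM or more, 208 were called higher with TNF and 160 again at least 2-fold, with a median log2 fold change of 1.26 with TNF and 1.31 without. Of the 293 lower genes, 292 were called lower with TNF and 256 again at least 2-fold (medians -1.61 with TNF and -1.57 without). For PLEKHS1, the lowest gene, the log2 fold change was -8.09 with TNF, and for ACSL5 it was 3.32. RNF43 was at 32.1 ± 3.38 CPM in N108 cells and 4.30 ± 0.180 CPM in WT cells with TNF (SD, n = 3 each; 2.90 ± 0.08, adjusted p = 8.4e-22).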

How the data were processed

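RNA-seq libraries (total RNA, 50 bp paired-end reads, per the labels' protocols) of 3 untreated N108 and 3 untreated WT samples were compared, with the other 12 libraries of the study in the same fit. The authors deposited raw read counts per Ensembl gene, 1 column for each library. The submitters' processing notes name the build hg38 and the tools DESeq2 1.38.3, Subread 2.0.1 with its counter featureCounts, STAR 2.7.8 and Trim Galore 0.6.6. The sources used here do not give the annotation release or the use of strand. A second deposited table of the authors holds normalized values on a log2 scale, which were looked at and entered no test.

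Counts were fitted with edgeR 4.0.16 in R 4.3.3 (TMM scaling, filterByExpr with a minimum count of 10, 6 group means, robust quasi-likelihood test, 12 residual degrees of freedom), with Benjamini-Hochberg adjustment over 19038 genes and a threshold of 0.05. Standard errors are the log2 fold change over the root of F. The fit was run on simulated counts with known changes in a small share of genes, 1 fixed spread and no GC trend. That run checked the code and not the error rate in these data. DESeq2 1.42.0, other scaling, other filters, GC correction, a fit of the 6 libraries alone, a replicate block and leaving out each library were the alternatives. Replicate pairs differed beyond counting noise (chi-square per degree of freedom 3.42 to 12.6), so no library was a copy of another. Positions and gene types come from GENCODE 29 (GRCh38), which held 58352 of the 61552 gene IDs, and promoters from RefSeq (GRCh38.p14). Intervals and floors cover counting error only, and PCR copies of a molecule could not be told from separate molecules.

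Named genes are NFKBIA, the 12 highest and 12 lowest genes called with at least 1 CPM and groups that do not overlap, the 5 highest and 5 lowest of those with at least 50 CPM, in each gene list the 4 members of smallest p, the 5 NF-κB subunit genes and genes of the described runs. The libraries, the 39 gene lists and this rule were chosen with earlier results of these data known. Other list members, and the genes apart from both WT and M3, were picked after their values were seen. Some genes that the rule names are not reported here.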

Additional observations from a re-analysis of the deposited data

Results flagged for a closer look

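For 7 of the named genes the N108 minus WT difference was not the same with and without TNF by a test of that difference (an interaction term in the edgeR fit, adjusted over all genes). The share of all genes that passed this test is not given here, so the count shows nothing particular to the named genes. In each of the 7 the log2 fold change was higher with TNF, and the share of all genes with that direction is not given either. TNFAIP3, the A20 deubiquitinase, had log2 fold changes of -0.70 with TNF and -1.38 without, and the 2 values differed by 0.68 ± 0.08, adjusted p = 2.6e-04. For NFKBIZ, a nuclear IκB protein, they were 0.02 with TNF and -0.74 without (difference 0.76 ± 0.10, adjusted p = 5.4e-04). Both are NF-κB targets. For GDF15 they were -0.71 with TNF and -1.28 without (0.57 ± 0.13, adjusted p = 0.029), and for COL1A1, a collagen chain, 0.95 with TNF and 0.30 without (0.65 ± 0.10, adjusted p = 0.0025). HOXB6 differed by 0.26 ± 0.07, adjusted p = 0.035, SREBF1 by 0.27 ± 0.07, adjusted p = 0.046 and RFNG by 0.33 ± 0.08, adjusted p = 0.02. NFKBIA itself had -1.46 with TNF and -1.60 without, and its difference of 0.14 did not pass (adjusted p = 0.26).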

How the results depend on the processing

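The count of genes called in untreated N108 against WT cells was 8079 and ranged from 6873 to 7429 when 1 library was left out (3373 to 3596 higher, 3500 to 3833 lower, 424 to 481 at least 2-fold higher and 594 to 638 at least 2-fold lower). It was 7927 with DESeq2, 8091 with DESeq2's size factors, 7939 without a filter, 8730 with the GC trend removed and 9255 in a fit of the 6 libraries alone. The stricter filter of 1 CPM in 3 libraries left 235 genes at least 2-fold higher, against 453, and 299 lower, against 600, since it tests fewer genes of low count. With a replicate block 7980 genes were called, but libraries of the same number did not all deviate together (r 0.0741, 0.0850 and 0.273 for replicates 1, 2 and 3 across genes), and replicate 2 of N108 correlated best with replicate 1 of WT, so the numbers were not taken as pairs. Of 220 named genes, 213 kept call and direction under all 14 alternatives. TEX14, MT-CO1, KDR, REL, NFKB2, RELB and PKD1L1 changed call in at least 1, and the cause was not tested. No named gene changed direction. Of 78 counts of list members called higher or lower, 19 moved by over 1.5 times in at least 1 alternative, and of 39 list medians 20 did so or changed sign, 9 of them in sign. Under the stricter filter the median log2 fold change was -1.08 for goblet, Paneth and enteroendocrine genes, against 0.29, and -1.20 for enterocyte genes, against -0.75. The median of the Polycomb list was 0.00 without N108 replicate 3. Depth limits genes under about 0.1 CPM, where a library holds only a few counts.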
